A study of Homo sapiens with 6 samples.

Results

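Phospholipid acyl remodelling is the exchange of fatty acids on membrane phospholipids, and it was followed here through 10 human genes: the lysophospholipid acyltransferases LPCAT1, LPCAT2, LPCAT3, LPCAT4, MBOAT1, MBOAT2 and MBOAT7, and the phospholipases A2 PLA2G4A, PLA2G6 and PNPLA8. The genes were picked by symbol, with earlier results of these data known. Of the 10, 8 had a row among the 12396 named genes of the count table; LPCAT2 and MBOAT2 had none and were not analysed here. All libraries come from JHH-4, an established line of human liver cancer (hepatocellular carcinoma) cells. The control group carries the genotype label WT, and the other group the label hsa-miR-372-3p overexpress, reached with a pri-miRNA plasmid. Each group held 3 libraries, which the series calls technical replicates, so p-values measure only the spread between these libraries. The sources used here do not give the plasmid's promoter, what the control cells received or the time of harvest.

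In the Lands cycle, a phospholipase A2 cuts the fatty acid from the middle carbon of a phospholipid, and a lysophospholipid acyltransferase puts another one back. The enzymes differ in the acyl-CoA and the head group they prefer, so together they set how many polyunsaturated chains a membrane holds. Polyunsaturated phospholipids are the substrate of the lipid peroxidation that drives ferroptosis: ACSL4 activates arachidonate and adrenate, and LPCAT3 places such chains into phosphatidylcholine and phosphatidylethanolamine. The liver is rich in LPCAT3, a target of the sterol-sensing liver X receptors.

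The mature microRNA is shown because the members were searched for its sites. RefSeq places it on chromosome 19, 53787931 to 53787953, plus strand (GRCh38.p14), and its seed, bases 2 to 8, stands in capitals.
hsa-miR-372-3p: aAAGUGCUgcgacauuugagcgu

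Sites were sought in the transcript with the longest 3′ UTR of each gene in GENCODE 29 (GRCh38), on the sense strand: AGCACTTA (8mer), AGCACTT (7mer-m8, the match to bases 2 to 8), GCACTTA (7mer-A1) and GCACTT (6mer), each shorter motif lying within the longer ones. None of the 4 motifs occurred in the 3′ UTRs of LPCAT1 (2228 nt), LPCAT3 (718 nt), LPCAT4 (509 nt), MBOAT1 (141 nt), MBOAT7 (1040 nt) or PLA2G4A (473 nt). Only PLA2G6 and PNPLA8 held matches. The PLA2G6 match is shown with its flanks, with the bases matching the motif in capitals.
PLA2G6, chr22:38111953-38111979, minus strand, 7mer-m8: cccgccttccAGCACTTtctgtcattc

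Such matches are frequent: 25.5% of the 12192 genes searched held AGCACTT and 40.6% held at least 1 of the 4 motifs. A match is a description of the letters and does not show a site in use.

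Total counts were 48325676 to 49693205 in the control libraries and 52511378 to 61699567 in the overexpression libraries. On the second principal component (11.8% of the variance) control replicate 3 lay at −24.55, away from the controls at 17.93 and 6.39. Of 10 markers of hepatocytes and liver epithelium, 3 had a row (SERPINA1, KRT8 and KRT18), while ALB, AFP, APOA1, APOB, TTR, TF and EPCAM had none. Their summed level was 2291 to 2391 CPM (counts scaled to 1000000 reads of the TMM-adjusted library) in control and 4676 to 4825 CPM in overexpression, but they did not move together. The keratin genes KRT8 (1748 ± 5.81 to 3324 ± 97.9 CPM) and KRT18 (581 ± 45.0 to 1441 ± 18.3 CPM) rose, while SERPINA1, a secreted hepatocyte protein, fell from 8.98 ± 0.639 to 1.77 ± 0.372 CPM (SD, n = 3). Of 7 markers of blood, endothelial and stromal cells, 3 had a row (CD68, COL1A1 and PDGFRB), with a summed level of 131 to 153 CPM in control and 208 to 220 CPM in overexpression. The macrophage marker CD68, most of that sum in control, did not pass (130.3 ± 11.1 and 129.1 ± 2.30 CPM), whereas the stromal markers COL1A1 (4.84 ± 1.97 to 63.95 ± 3.63 CPM) and PDGFRB (9.08 ± 0.673 to 20.2 ± 0.518 CPM) rose. The part of these markers in the results below was not tested.

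The comparison asked how overexpression of miR-372-3p changed the enzymes that exchange phospholipid fatty acids. Of the 8 members, 3 fell and 0 rose in edgeR's quasi-likelihood test; 0 were higher also at an unadjusted p under 0.05 and by DESeq2. LPCAT3, which inserts linoleate and arachidonate, fell 1.72-fold by its own counts, the phospholipase PLA2G4A, which releases arachidonate, fell 1.35-fold, and LPCAT1, which prefers saturated chains, fell 1.23-fold. LPCAT4, MBOAT1, MBOAT7, PLA2G6 and PNPLA8 did not pass the test. Much of the transcriptome moved: 54.5% of all genes passed at an adjusted p of 0.05, with 27.7% of all genes lower and 26.8% higher. The members passed in 37.5% of cases, all lower, with a median log2 fold change of −0.11 (all genes, 0.0013). In 3 of the 8 members the groups did not overlap, against 62.2% of all genes. LPCAT3 was the 1 member past the threshold that fell at least 1.5-fold, as 8.46% of all genes did. LPCAT3 exons overlap those of another gene, described below, and the part of shared reads in its fall was not tested. In bulk RNA, fewer cells with a transcript and less transcript per cell cannot be told apart.

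**Figure D1:**
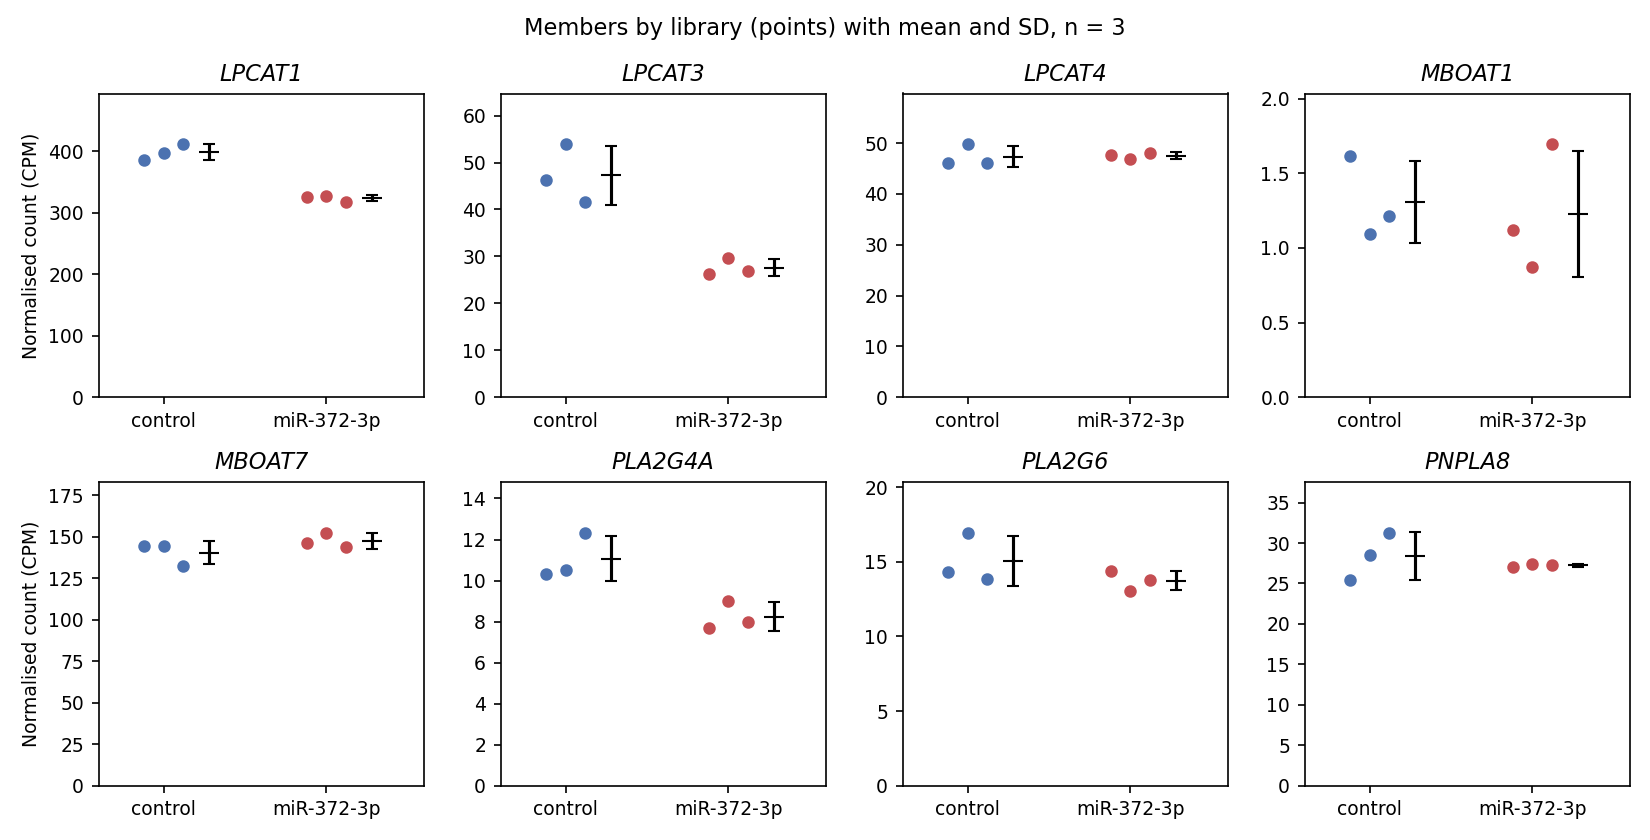
Normalised counts (CPM, linear axes from 0) of the 8 members in each library, with the mean and SD of 3 libraries beside the points; blue is control and red is miR-372-3p overexpression. The red points lie below all blue points for LPCAT1, LPCAT3 and PLA2G4A and overlap them for the other 5 genes.

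LPCAT3 (ENSG00000111684, chromosome 12, 6976186 to 7018510, minus strand, GRCh38) had 46.2, 53.9 and 41.7 CPM in control replicates 1 to 3, and 26.2, 29.6 and 26.9 CPM in overexpression replicates 1 to 3. All 3 overexpression libraries lay below all 3 controls, and the controls were the more scattered, with a coefficient of variation of 13.1% against 6.55%. The means were 47.3 ± 6.20 and 27.6 ± 1.80 CPM (SD, n = 3), resting on 2023 to 2513 reads per control library and 1496 to 1570 per overexpression library. On the log2 scale the change was −0.78 ± 0.090 (standard error of the fit, as after every log2 fold change below), with 95% confidence limits of −0.98 and −0.58 (edgeR adjusted p = 6.40e-05). Only 5.54% of all genes had a lower log2 fold change. In the authors' deposited table it was also −0.78.

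A second gene shares the LPCAT3 locus. EMG1, a methyltransferase of ribosomal RNA processing, is annotated on the opposite strand, and its exons cover 65.6% of the exonic bases of LPCAT3. Of its 6 annotated transcripts, 1 overlaps any LPCAT3 exon, a protein-coding one of 4898 nt, which covers 66.4% of the main LPCAT3 coding transcript (2268 nt). The library kit does not mark strand, so reads from the shared stretch cannot be told apart by strand. CPM without TMM scaling, divided by FPKM, gave an implied length of 4.82 to 5.30 kb for EMG1, near the 4898 nt of the overlapping transcript, and of 2.59 to 2.65 kb for LPCAT3. Across all genes this implied length was 1.03 to 1.06 times the longest annotated transcript, as a median per library.

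EMG1 had 100.4, 85.3 and 119.7 CPM in control replicates 1 to 3, and 106.1, 107.6 and 109.8 CPM in overexpression replicates 1 to 3. The control libraries ranked in opposite order for LPCAT3 and EMG1: control replicate 2 had the most LPCAT3 and the least EMG1, and control replicate 3 the least LPCAT3 and the most EMG1. MARK2, DPP9 and PSMF1 had the control order of LPCAT3, but they were picked below for likeness to LPCAT3 over these same libraries. PISD had the control order of EMG1. The share of all genes with either order was not counted, and the part of shared reads in these orders was not tested. EMG1 did not pass the test (log2 fold change 0.08 ± 0.098, adjusted p = 0.502), but did without control replicate 3 (0.21, adjusted p = 0.00996). LPCAT3 made up 31.5, 38.7 and 25.8% of the sum of both genes in the controls and 19.8, 21.6 and 19.7% in overexpression (exact permutation, two-sided p = 0.1, the smallest that 3 against 3 allows).

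Summed, both genes had 149 ± 11.3 CPM in control and 135 ± 2.71 CPM in overexpression (SD, n = 3). With the counts of LPCAT3 and EMG1 joined before the fit, a step chosen after seeing the data, the log2 fold change was −0.14, with 95% confidence limits of −0.26 and −0.02 (edgeR adjusted p = 0.0487). Leaving out each library in turn, this sum passed in 1 of 6 fits, without control replicate 2 (−0.18, adjusted p = 0.00983). In the other 5 fits the log2 fold change ran from −0.15 to −0.08, with adjusted p from 0.0767 to 0.149. EMG1 made up most of the sum in every library, so a change of LPCAT3 alone would move the sum by less. The sum therefore cannot show how far LPCAT3 itself changed. How far the lower LPCAT3 count reflects the division of shared reads between both genes was not tested.

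**Figure D2:**
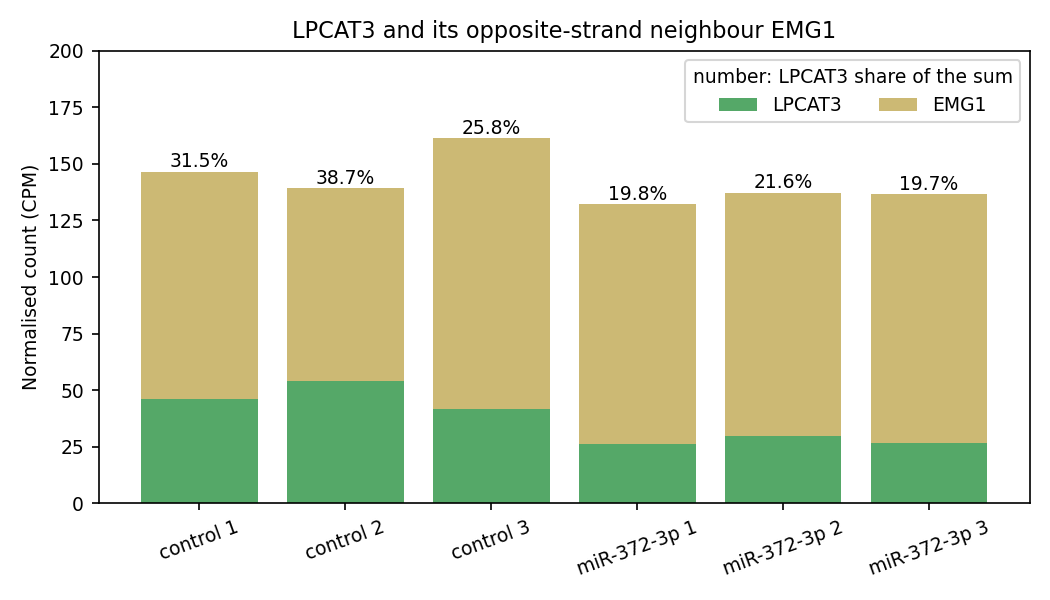
Normalised counts (CPM, bars from 0) of LPCAT3 and of EMG1 stacked on it in each library, with the LPCAT3 share of the sum printed above. The share is 25.8 to 38.7% in the controls and 19.7 to 21.6% in overexpression, while the sums lie between 132 and 161 CPM.

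LPCAT1 (ENSG00000153395, chromosome 5, 1456480 to 1523977, minus strand), known for the dipalmitoyl phosphatidylcholine of lung surfactant, was the most abundant member. It had 386, 398 and 411 CPM in the controls and 325, 328 and 318 CPM in overexpression. The groups were far apart for their spread: the controls varied by 3.15% and the overexpression libraries by 1.61% (coefficient of variation). The log2 fold change was −0.30 ± 0.036 (95% confidence interval −0.38 to −0.22, adjusted p = 8.53e-05), with 16564 to 19976 reads per library, and no other gene's exons overlap it in GENCODE 29.

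LPCAT4 (ENSG00000176454, chromosome 15, 34358618 to 34367278, minus strand), which acylates lysophosphatidylethanolamine among other acceptors, had 46.1, 49.8 and 46.1 CPM in the controls and 47.7, 46.8 and 48.1 CPM in overexpression. The groups overlapped. The log2 fold change was 0.01 with a narrow 95% confidence interval, −0.10 to 0.11, which spans 0.933 to 1.08 times the control level.

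MBOAT7 (ENSG00000125505, chromosome 19, 54173412 to 54189882, minus strand) adds arachidonate to lysophosphatidylinositol. It had 144.8, 144.4 and 132.4 CPM in the controls and 146.2, 152.6 and 143.7 CPM in overexpression, with control replicate 3 lowest. Its log2 fold change was 0.07 ± 0.046 (95% confidence interval −0.03 to 0.17, adjusted p = 0.225). The deposited FPKM gave a different call: 59.9 ± 2.33 in control and 67.5 ± 4.08 in overexpression (SD, n = 3), a difference of 0.17 on the log2(FPKM + 1) scale that passed in limma (adjusted p = 0.0376).

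MBOAT1 (ENSG00000172197, chromosome 6, 20102145 to 20212399, minus strand), an oleate-preferring acyltransferase of lysophosphatidylethanolamine and lysophosphatidylserine, was barely transcribed. It had 76, 51 and 59 reads in the controls and 67, 44 and 95 in overexpression, or 0.870 to 1.70 CPM over all 6 libraries. The highest and the lowest library both belonged to overexpression. At this depth the 95% confidence interval of the log2 fold change ran from −0.72 to 0.54, wide enough to hold the change seen in PLA2G4A in either direction.

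PLA2G4A (ENSG00000116711, chromosome 1, 186828953 to 186988981, plus strand) is the calcium-dependent cytosolic phospholipase A2, selective for arachidonate. It had 10.3, 10.5 and 12.3 CPM in the controls and 7.69, 9.02 and 7.98 CPM in overexpression, from 447 to 599 reads per library. The groups did not overlap, although control replicate 1 and overexpression replicate 2 were close. The log2 fold change was −0.43 ± 0.107 (95% confidence interval −0.67 to −0.19, adjusted p = 0.00724), and −0.34 at its smallest when a library was left out.

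Neither calcium-independent phospholipase passed the test. PLA2G6 (ENSG00000184381, chromosome 22, 38111495 to 38205690, minus strand) had 14.3, 17.0 and 13.8 CPM in the controls and 14.4, 13.1 and 13.8 CPM in overexpression. Control replicate 2 was highest and the other 5 libraries lay together (log2 fold change −0.13 ± 0.093, 95% confidence interval −0.34 to 0.08, adjusted p = 0.264). An antisense gene without a row of its own overlaps 22.5% of its exonic bases.

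PNPLA8 (ENSG00000135241, chromosome 7, 108470422 to 108569666, minus strand), a phospholipase of mitochondria and peroxisomes, had 25.4, 28.5 and 31.3 CPM in the controls and 27.0, 27.4 and 27.2 CPM in overexpression. All 3 overexpression libraries fell inside the range of the controls (log2 fold change −0.06 ± 0.075, 95% confidence interval −0.23 to 0.11, adjusted p = 0.520). PLA2G6 and PNPLA8, the members with a match to the miR-372-3p seed, were among the 5 that did not pass, and the 3 members that fell had no match in the 3′ UTR searched. Calls were not compared between genes with and without a match over the whole table. Whether matches bear on these calls was not tested.

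**Figure D3:**
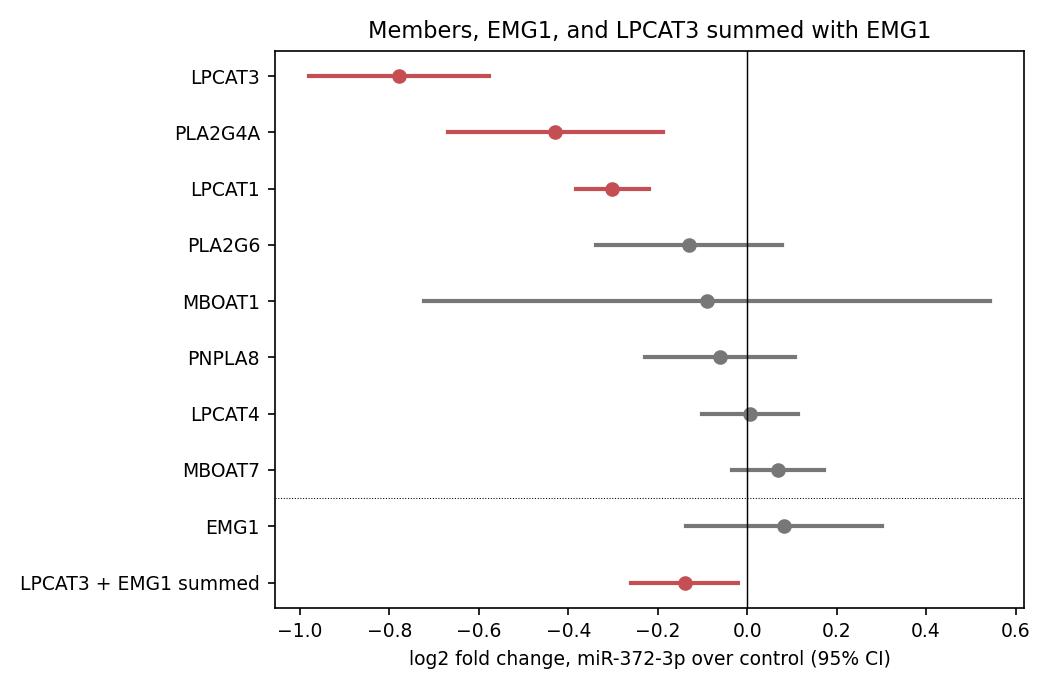
Log2 fold change of overexpression over control (points) with 95% confidence intervals (lines) for the 8 members, and, under the dotted line, for EMG1 and for LPCAT3 and EMG1 counts summed; red marks an adjusted p under 0.05. LPCAT3 stands at −0.78 and the sum, most of it EMG1, at −0.14, and MBOAT1 has the widest interval.

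Per transcript length, the members spanned a wide range in control cells. The authors' FPKM, a level scaled to gene length and depth, was 88.9 ± 3.34 for LPCAT1, 59.9 ± 2.33 for MBOAT7, 19.0 ± 1.01 for LPCAT4 and 18.1 ± 2.40 for LPCAT3 (SD, n = 3). It was 7.10 ± 0.739 for PNPLA8, 6.31 ± 0.703 for PLA2G6, 3.42 ± 0.378 for PLA2G4A and 0.642 ± 0.137 for MBOAT1. LPCAT4 and LPCAT3 did not differ beyond their spread in control, nor did PNPLA8 and PLA2G6. In overexpression LPCAT4 stayed at 19.4 ± 0.270 FPKM while LPCAT3 stood at 10.5 ± 0.600, and every LPCAT3 library lay below every LPCAT4 library.

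The 5 measured acyltransferases together had a summed FPKM of 185 to 187 in the controls and 164 to 173 in overexpression. LPCAT1 held 47.6 ± 1.69% of that sum in control and 42.3 ± 0.876% in overexpression, and LPCAT3 held 9.71 ± 1.27% and 6.18 ± 0.320%. MBOAT7 went from 32.1 ± 1.40% to 39.7 ± 1.36% and LPCAT4 from 10.2 ± 0.502% to 11.4 ± 0.439% (SD, n = 3). For these 4 genes the groups did not overlap (exact permutation, two-sided p = 0.1 each, the smallest possible, and 0.125 adjusted over 5 shares). MBOAT1 held under 1% in every library. Shares of a sum move together, so a share can grow while the gene's own level does not, and the LPCAT3 share carries the uncertainty of its shared reads. The shares also rest on FPKM, in which MBOAT7 went from 59.9 ± 2.33 to 67.5 ± 4.08, while its counts did not pass.

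**Figure D4:**
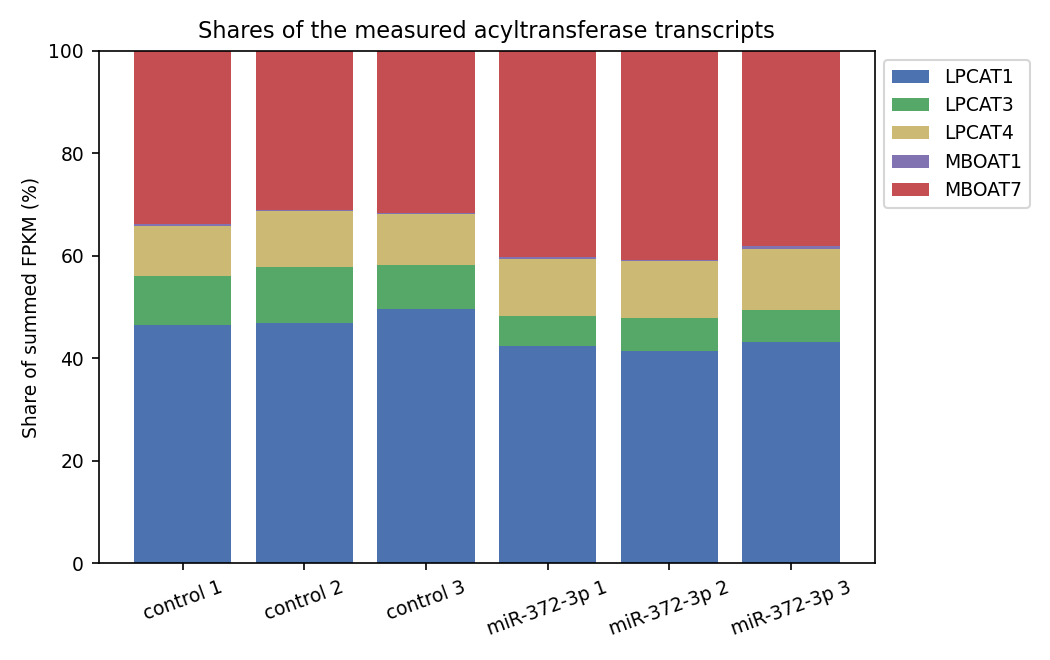
Share (%) of each measured acyltransferase in their summed FPKM, stacked to 100% for each library. LPCAT1 and LPCAT3 take 47.6 and 9.71% on average in control and 42.3 and 6.18% in overexpression, and MBOAT7 takes 32.1 and 39.7%.

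Within libraries, the FPKM ratio of LPCAT3 to each of the other 7 members was compared. All 7 ratios share the LPCAT3 value, so they are not separate results. Each also carries the uncertainty of the reads LPCAT3 shares with EMG1. FPKM and counts can differ: PLA2G6 went from 6.31 to 6.44 in mean FPKM and from 15.0 to 13.7 in mean CPM. On the log2 scale the ratio to MBOAT7 went from −1.73 to −2.69, that to LPCAT4 from −0.08 to −0.89 and that to LPCAT1 from −2.30 to −2.78. The ratio to PLA2G6 went from 1.52 to 0.71 and that to PNPLA8 from 1.35 to 0.61. In these 5 ratios the groups did not overlap (exact permutation, two-sided p = 0.1, adjusted over 7 ratios 0.14). The ratio to PLA2G4A went from 2.40 to 2.04 (p = 0.2 by the same exact test, adjusted 0.233), and that to MBOAT1 from 4.83 to 4.17 (exact p = 0.3, adjusted 0.3), and in both the groups overlapped.

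The genes whose log2 CPM ran closest to LPCAT3 over the 6 libraries were MARK2 (Pearson r = 0.999), DPP9 (0.999) and PSMF1 (0.999), among 11703 genes whose mean reached 2 CPM. The value is a description of 6 libraries that fall into 2 groups, and 18% of those genes had an r over 0.9. MARK2 and DPP9 fell by less than LPCAT3, with log2 fold changes of −0.28 ± 0.051 and −0.24 ± 0.040, and PSMF1 fell by 0.55 on the log2 scale. In limma on log2(FPKM + 1), MARK2 (adjusted p = 0.0835) and DPP9 (adjusted p = 0.0644) did not pass.

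The other genes of these pathways were counted in 6 lists, of which 55.6 to 76.9% of the measured genes passed, beside 54.5% of all genes (27.7% lower and 26.8% higher). Among genes that supply polyunsaturated chains and handle them in ferroptosis, more fell than rose. Of 26 on that list 22 had a row, of which 12 fell, 2 rose and 8 did not pass, with a median log2 fold change of −0.27 against 0.0013 for all genes. ACSL4, named in the series title, had 108.9, 113.7 and 114.1 CPM in the controls and 64.2, 56.7 and 60.7 CPM in overexpression. ACSL1, another long-chain acyl-CoA synthetase, went from 13.4 ± 1.14 to 6.28 ± 0.188 CPM, and the lipoxygenase family gene ALOXE3 from 2.08 ± 0.332 to 0.630 ± 0.166 CPM (SD, n = 3). The log2 fold change of ALOXE3 was −1.72 ± 0.250 (adjusted p = 0.000296).

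Several other genes of the list were picked after their values were seen. FADS1, the delta-5 desaturase, fell (−0.53 ± 0.047), as did ACSL3 (−0.63 ± 0.036), which favours monounsaturated chains. SCD, the desaturase that makes monounsaturated chains, fell slightly (−0.13 ± 0.035, adjusted p = 0.0121) and did not pass without control replicate 1 (adjusted p = 0.0512). GPX4, which reduces phospholipid hydroperoxides, fell (−0.27 ± 0.056), and AIFM2, which regenerates ubiquinol, rose (0.20 ± 0.062), though not past the threshold without overexpression replicate 1 (adjusted p = 0.0714) or 2 (adjusted p = 0.0827). GCH1 (−0.28 ± 0.166) and DHODH (0.0027 ± 0.075), which also act against lipid peroxidation, did not pass. Besides AIFM2, the gene of this list that rose was PEDS1 (0.41 ± 0.078, edgeR adjusted p = 0.00146). The elongases ELOVL2 (0.13 ± 0.075) and ELOVL5 (−0.04 ± 0.039) did not pass, although ELOVL2 did without control replicate 2 (0.23, adjusted p = 0.0103).

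Among the other glycerophospholipid acyltransferases, many of which build phosphatidate from glycerol 3-phosphate, more rose than fell. Of 14 listed, 13 had a row, and 7 rose, 3 fell and 3 did not pass, with a median log2 fold change of 0.18 (4 rose without control replicate 1, and 4 without overexpression replicate 1). AGPAT4, which acylates lysophosphatidate, rose from 11.1 ± 0.932 to 16.6 ± 0.410 CPM. LCAT, the plasma enzyme that esterifies cholesterol, rose from 2.15 ± 0.261 to 3.40 ± 0.798 CPM (adjusted p = 0.0215), but did not pass without control replicate 2 (adjusted p = 0.0518) or without overexpression replicate 2 (adjusted p = 0.0928). LPGAT1, named for the acylation of lysophosphatidylglycerol, fell from 117 ± 3.35 to 71.5 ± 1.81 CPM (SD, n = 3), a log2 fold change of −0.71 ± 0.042.

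Of 34 other phospholipases A and lysophospholipases, 23 had a row, and 10 fell, 7 rose and 6 did not pass (median −0.12). PLA1A, a phosphatidylserine-specific phospholipase A1, fell from 3.20 ± 0.250 to 0.679 ± 0.0787 CPM, and PLBD1 from 20.3 ± 1.77 to 10.5 ± 0.273 CPM. PNPLA4 rose from 0.986 ± 0.293 to 2.06 ± 0.133 CPM (SD, n = 3), but did not pass in limma on log2(FPKM + 1) (0.16, adjusted p = 0.21).

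Of 24 eicosanoid enzymes downstream of arachidonate release, 17 had a row, and 10 fell, 1 rose and 6 did not pass (median −0.41). Of these 17, 64.7% passed, beside 54.5% of all genes. The list is not limited to enzymes that make eicosanoids, and PTGS2, PTGES2, PTGES3 and LTA4H were among those that did not pass. TBXAS1, thromboxane A synthase, had 22.4, 21.7 and 21.8 CPM in the controls and 7.97, 7.24 and 7.01 CPM in overexpression (log2 fold change −1.57 ± 0.078, adjusted p = 2.52e-07). AKR1C3, which reduces prostaglandins and steroids, went from 77.7 ± 6.66 to 40.2 ± 0.906 CPM (SD, n = 3). The gene that rose was ALOX5AP, the protein that presents arachidonate to 5-lipoxygenase, with 0, 20 and 0 reads in the controls and 99, 65 and 89 in overexpression. Its call depends on the tool, since DESeq2 gave an adjusted p of 0.15.

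Genes of head group synthesis went both ways. Of 20 listed, 18 had a row, and 7 rose, 3 fell and 8 did not pass (median 0.02). ETNK2, an ethanolamine kinase, rose from 8.57 ± 0.276 to 25.3 ± 1.48 CPM (log2 fold change 1.56 ± 0.074), the choline kinase CHKA from 81.3 ± 7.09 to 121 ± 2.90 CPM, and PISD, which makes phosphatidylethanolamine in mitochondria, from 40.7 ± 3.83 to 58.7 ± 3.90 CPM (SD, n = 3).

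Of 15 genes of the liver X receptor pathway and of nuclear receptors known to act on members, 11 had a row, and 5 rose, 3 fell and 3 did not pass (median 0.06). Those that fell were SREBF1 (−0.83 ± 0.043), the sterol-regulated transcription factor, SMPDL3A (−0.94 ± 0.133) and PPARA (−0.49 ± 0.086). PPARA did not pass in limma on log2(FPKM + 1) (−0.12, adjusted p = 0.176). The receptor genes themselves, picked after their values were seen, were NR1H2, which rose (0.25 ± 0.046), and NR1H3, which did not pass (−0.15 ± 0.072, adjusted p = 0.0973). ABCA1, a transporter gene also picked after its value was seen, was 1 of the 5 on the list that rose (0.26 ± 0.052).

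**Figure D5:**
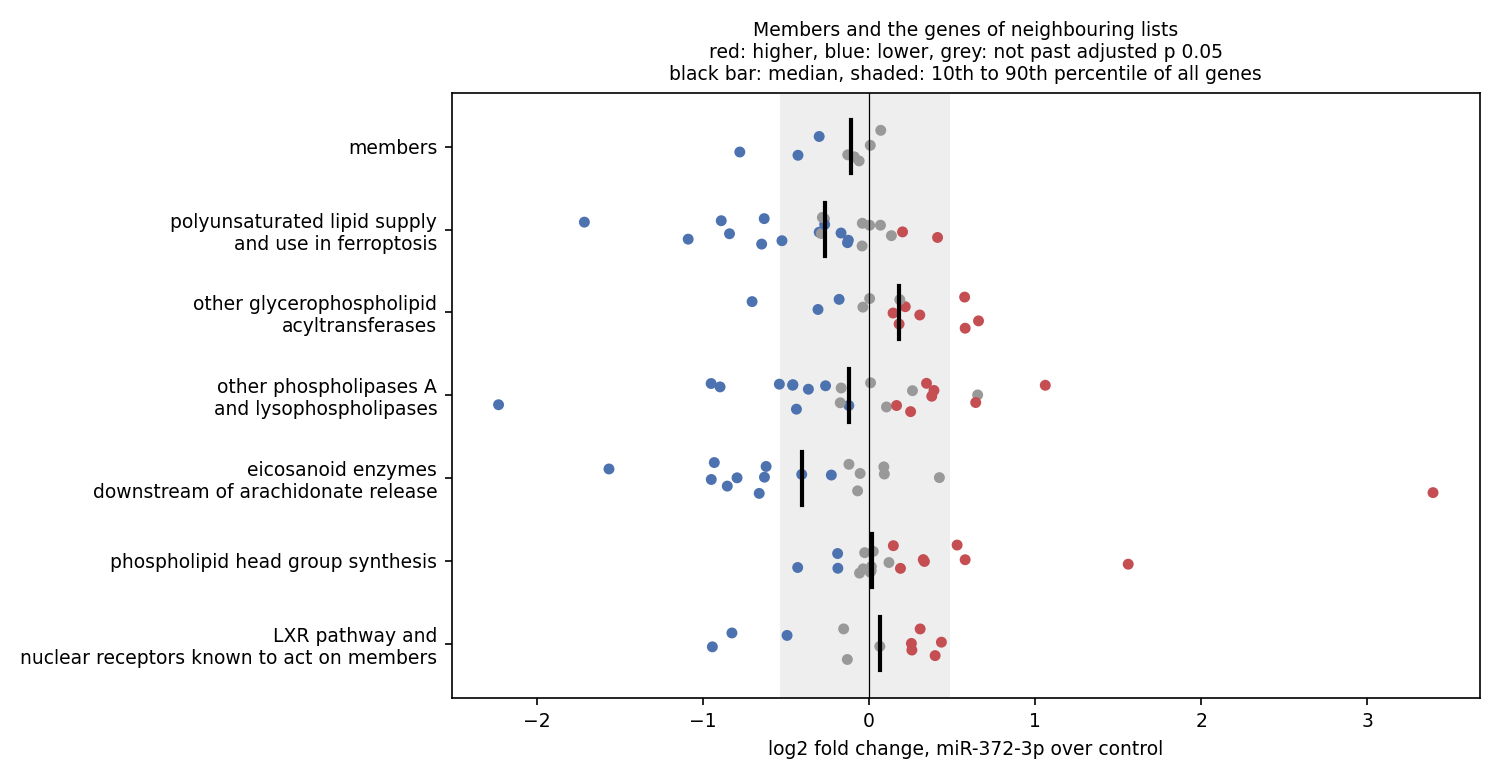
Log2 fold change of overexpression over control for each measured member and for the genes of 6 neighbouring lists (points; red higher, blue lower, grey not past an adjusted p of 0.05), with list medians as black bars and the 10th to 90th percentile of all genes, −0.53 to 0.48, shaded. The medians run from −0.41 for eicosanoid enzymes to 0.18 for the other acyltransferases, with the members at −0.11.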

How the data were processed

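RNA was purified on columns, and the library kit was NEBNext Ultra RNA, per the labels' protocols; that kit keeps no strand information. The authors deposited 1 table. Per its file headers it gives each library's counts and FPKM, then the p-value of the comparison and its log2 fold change. GRCh38, StringTie 2.2.1, HISAT2 2.0.4 and DESeq2 1.38.3 appear in the submitters' processing notes, with no roles, and the sources used here name neither the annotation nor the counting. The deposited counts are whole numbers without normalization, and the authors scaled the FPKM to length and depth. The deposited log2 fold changes are quoted beside the fit made here, and the deposited p-values were not used.

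Of 14006 rows, 12396 with an Ensembl ID were tested; 1610 unnamed loci (2.64 to 3.63% of counts) were left out of library sizes. The test was that of edgeR 4.0.16 under R 4.3.3 (TMM, quasi-likelihood F-test, no block, Benjamini-Hochberg over all genes, threshold 0.05). The fit was tested on simulated data. filterByExpr removed 0 genes, and no row had fewer than 208 counts over the 6 libraries. Groups and replicate numbers came from titles, and all per-sample columns were matched. No library looked like another deposited again (chi-square per degree of freedom 6.86 to 38.6 within groups). Alternatives were RLE and no composition factors, other filters, DESeq2 1.42.0, limma 3.58.1 on log2(FPKM + 1), a replicate block and leaving out each library. Positions, overlaps and 3′ UTRs of at least 50 nt came from GENCODE 29; the sequences matched in PNPLA8 are not reported here. Named genes were the members, ACSL4, up to 3 genes with the largest change past the threshold from each of 6 lists, and the 3 genes most like LPCAT3. FADS1, ACSL3, SCD, GPX4, AIFM2, PEDS1, GCH1, DHODH, ELOVL2, ELOVL5, NR1H2, NR1H3, ABCA1 and the cell type markers given were added after their values were seen. Members and lists were chosen with earlier results of these data known.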

Additional observations from a re-analysis of the deposited data

How the results depend on the processing

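LPCAT1, LPCAT3 and PLA2G4A stayed lower and past the threshold in all 13 alternative settings each. The sum of LPCAT3 and EMG1, an alternative added after seeing the data, passed by a small margin (−0.14). It then passed in only 1 of 6 fits that left out a library. EMG1 made up most of that sum, so its change cannot be set directly against the −0.78 of LPCAT3 alone. LPCAT3 ran from −0.86 to −0.67 when a library was left out. With limma on log2(FPKM + 1), 1 member (MBOAT7) was higher, where the count fit had none. Among eicosanoid enzymes, 0 genes were higher with DESeq2 and 0 with a mean of at least 5 CPM, and 1 to 2 when a library was left out. Leaving out a library gave 1 to 3 higher genes on the list of polyunsaturated supply and 4 to 7 among the other acyltransferases. No scaling moved the median of all genes by more than 0.01 on the log2 scale, and 5761 to 7099 genes were called when a library was left out. The LPCAT3 share changed by −4.12 to −2.86 percentage points in those settings. Replicate numbers did not pair the samples (correlation of same-numbered deviations −0.14, −0.09 and 0.12, with 2 of 6 samples closest to their own number). The replicate block called 6809 genes against 6761 and the same number of members, 3. Depth limits MBOAT1 most, with 44 to 95 reads a library. The share test and the ratio tests cannot go below p = 0.1 with 3 libraries a group (exact permutation).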
